A study of Mus musculus with 11 samples.

Results

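The promoters of microRNA genes were examined in newborn mouse pancreas. A member was any row of the deposited promoter table on chromosomes 1 to 19 whose gene symbol begins with Mir or Mirlet and goes on with a digit, which gave 464 of 24391 promoters. Of these, 123 overlapped a CpG island of the deposited island table by at least 1 bp and 341 did not. The annotation (GENCODE M21 on GRCm38, the assembly called mm10) listed 456 members as microRNA genes, 4 as small nucleolar RNAs (Mir677, Mir3068, Mir1949 and Mir3096) and 4 as host transcripts of microRNAs (Mir22hg, Mir142hg, Mir143hg and Mir17hg). DNA methylation had been measured by reduced representation bisulfite sequencing (RRBS), which cuts DNA with the restriction enzymes MspI and TaqI and reads the CpG sites near the cuts. All 11 mice were wild type C57BL/6N pups at postnatal day 0, and whole pancreas was taken. The dams of 5 pups (3 females and 2 males) had received amphetamine at 10 mg/kg on embryonic days 14.5, 15.5 and 16.5, and those of 6 control pups (3 females and 3 males) had received saline. The same mice made up the comparison of 6 females with 5 males. The deposited tables hold a mean, an SD and the lowest and highest mouse for each group, so values are given in that form and not mouse by mouse. The labels do not say which pups shared a dam, so the p-values measure the spread between these pups.

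MicroRNAs are short RNAs cut from hairpins in longer transcripts. They pair with messenger RNAs mainly through the seed, bases 2 to 8 from the 5′ end, and lower the output of their targets, so that genes with the same seed can share targets. In the pancreas, miR-375 and miR-7 mark endocrine cells and restrain insulin secretion or β-cell growth, while miR-148a is abundant in acinar cells, which make digestive enzymes. CpG islands are stretches rich in CpG that are mostly unmethylated at active or potentially active promoters, whereas CpG-poor sequence is methylated by default. A promoter in these tables is the window from 1500 bp before to 500 bp after the annotated gene start, and for a microRNA that start is the hairpin. Many hairpins lie inside other genes and are copied from the start of the host gene, so the window need not hold the start of the primary transcript. Whole pancreas mixes acinar, duct, endocrine, vascular and blood cells, and fewer cells of a type cannot be told apart from a change within that type. Methylation is no measure of expression.

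Of the 464 hairpins or host transcripts, 213 lay in an intron and 126 in an exon of a gene on the same strand, 26 in an exon and 22 in an intron of a gene on the other strand, and 77 between genes. The windows of 201 members held the start of another annotated transcript, in 175 cases one of a protein-coding gene. A start here and below is that of any annotated transcript of a gene, which need not be the main start of that gene. Because clustered hairpins lie close together, 54 members shared 20 merged windows and the 464 windows covered 430 separate stretches. RefSeq gave a mature sequence for 416 members. The mature sequences below belong to microRNAs that share a seed and are shown because their promoters either differed widely or were alike. The seed is in capitals.
Mir34a, miR-34a-5p: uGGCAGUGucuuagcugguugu
Mir34b, miR-34b-5p: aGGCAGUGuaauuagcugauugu
Mirlet7i, let-7i-5p: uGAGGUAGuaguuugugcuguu
Mirlet7c-2, let-7c-5p: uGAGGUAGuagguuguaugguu
Mir130a, miR-130a-3p: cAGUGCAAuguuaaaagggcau
Mir130b, miR-130b-3p: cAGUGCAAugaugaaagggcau
Mir17, miR-17-5p: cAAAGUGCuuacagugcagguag
Mir106b, miR-106b-5p: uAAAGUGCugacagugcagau
Mir93, miR-93-5p: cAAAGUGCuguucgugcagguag
Mir219a-1, miR-219a-5p: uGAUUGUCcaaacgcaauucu
Mir219a-2, miR-219a-5p: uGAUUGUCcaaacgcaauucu
Mir9-2, miR-9-5p: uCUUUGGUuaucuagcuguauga
Mir9-3, miR-9-5p: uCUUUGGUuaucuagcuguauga
Mir7b, miR-7b-5p: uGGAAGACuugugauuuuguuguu
Mir7-2, miR-7a-5p: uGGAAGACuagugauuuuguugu
Mir132, miR-132-3p: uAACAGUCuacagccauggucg
Mir212, miR-212-3p: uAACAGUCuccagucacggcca

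The miR-9 and miR-219a genes each make an identical mature RNA from separate loci, and the other genes of this list differ outside the seed. Promoter stretches of 300 bases (250 before to 50 after the hairpin start, GRCm38) are shown for 4 members to which the results return. Capitals mark the sites that the 2 enzymes cut, CCGG for MspI and TCGA for TaqI, which are palindromes, read the same on both strands and cannot overlap each other.
Mir375 (chr1:74900672-74900971, minus strand): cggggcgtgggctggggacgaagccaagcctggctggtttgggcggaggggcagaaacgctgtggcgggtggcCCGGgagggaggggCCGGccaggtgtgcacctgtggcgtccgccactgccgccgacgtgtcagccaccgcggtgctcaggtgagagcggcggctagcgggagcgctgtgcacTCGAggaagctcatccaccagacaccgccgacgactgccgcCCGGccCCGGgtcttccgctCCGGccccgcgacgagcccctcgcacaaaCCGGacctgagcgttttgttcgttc
Mir34b (chr9:51103596-51103895, minus strand): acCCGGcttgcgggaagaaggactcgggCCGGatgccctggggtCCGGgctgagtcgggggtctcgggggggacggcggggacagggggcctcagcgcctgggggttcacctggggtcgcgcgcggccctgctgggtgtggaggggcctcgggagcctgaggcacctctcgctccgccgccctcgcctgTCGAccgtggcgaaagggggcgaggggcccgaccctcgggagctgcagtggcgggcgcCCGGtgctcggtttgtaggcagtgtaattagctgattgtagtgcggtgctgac
Mir34a (chr4:150068204-150068503, plus strand): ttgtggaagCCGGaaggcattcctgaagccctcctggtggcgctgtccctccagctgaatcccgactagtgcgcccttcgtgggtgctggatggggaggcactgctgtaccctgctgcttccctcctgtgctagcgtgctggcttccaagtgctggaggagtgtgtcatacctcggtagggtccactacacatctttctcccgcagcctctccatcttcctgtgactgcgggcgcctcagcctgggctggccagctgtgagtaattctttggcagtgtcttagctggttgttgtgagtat
Mir124a-2 (chr3:17795412-17795711, plus strand): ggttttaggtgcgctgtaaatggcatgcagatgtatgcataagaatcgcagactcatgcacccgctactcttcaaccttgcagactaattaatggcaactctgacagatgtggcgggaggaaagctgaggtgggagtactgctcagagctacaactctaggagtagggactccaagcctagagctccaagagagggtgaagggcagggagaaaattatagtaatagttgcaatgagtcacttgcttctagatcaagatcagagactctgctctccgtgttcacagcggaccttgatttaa

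The stretch of Mir375, the endocrine microRNA gene, held 35 CpG sites with 6 CCGG and 1 TCGA sites. That of Mir34b held 30 CpG sites with 4 CCGG and 1 TCGA sites, against 10 CpG sites and 1 CCGG site in Mir34a. The stretch of Mir124a-2 held 6 CpG sites and neither cut site, so that the cut sites of this window lay elsewhere in its 2000 bp. Among all promoters with an annotated start, 68.2% of such stretches held CCGG, 26.2% held TCGA and 75% held either. Among the members the shares were 55.6%, 23.3% and 64%.

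Control methylation split the members by CpG island. The 123 promoters with an island had a median of 2.65% (quartiles 1.72% and 5.66%), and the 341 without one had a median of 82.2% (quartiles 59.8% and 91.7%). The SD over control mice had a median of 2.03 percentage points with an island and 12.2 without. Among the other autosomal promoters, the medians were 2.61% for 12709 with an island and 73.2% for 10003 without. In the island class, 103 members (83.7%) lay below 10%, against 86.4% of the other promoters. In the class without an island, 25 members (7.33%) lay below 10%, against 15.3% of the other promoters, and 214 (62.8%) lay at 75% or above, against 48.2%. These shares are given as a description, with no test. For hairpins between genes or on the same strand as a gene around them, the medians differed little by where the hairpin lay. The 48 members on the other strand are left out here. Among members without an island the median was 78.2% between genes (n = 56), 82.8% in introns (n = 171) and 82.4% in exons (n = 82) of a gene on the same strand. With an island the same medians were 2.46% (n = 21), 2.77% (n = 42) and 2.38% (n = 44).

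**Figure D1:**
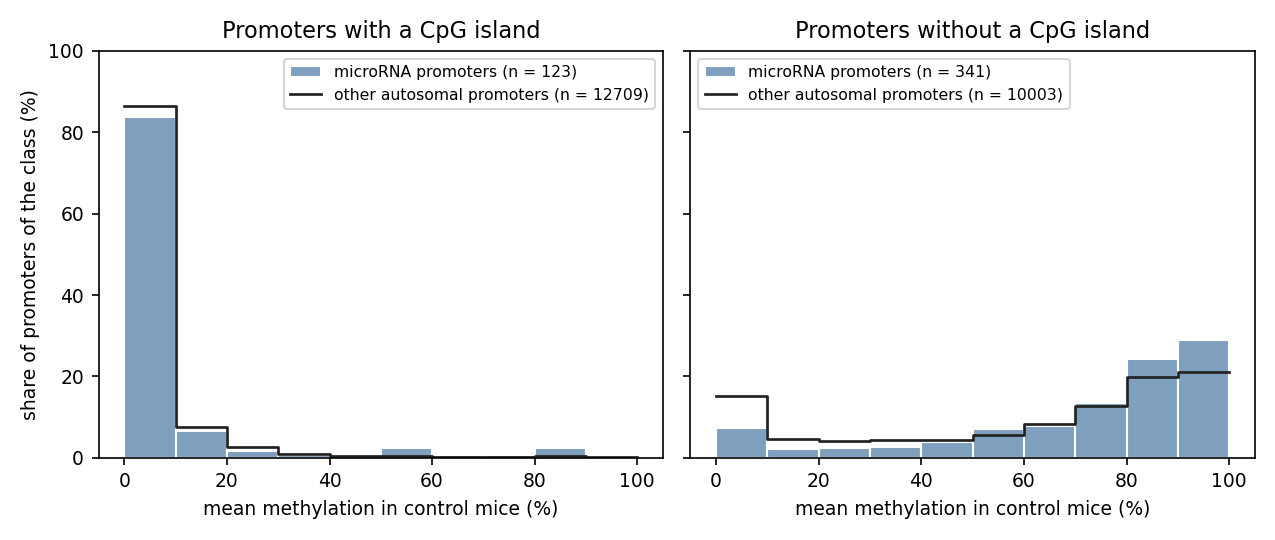
Share of promoters (vertical axis, percent of the class) in steps of 10 percentage points of mean methylation over 6 control mice (horizontal axis), for microRNA promoters (bars) and other autosomal promoters (line), with and without a CpG island. In the island class 83.7% of microRNA promoters lie below 10%, and in the other class 62.8% lie at 75% or above.

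The 2 classes were not measured to the same depth. Mean coverage in controls, read here as reads summed over the CpG sites of a window, had a median of 433 for members with an island and 66.3 for those without. CpG sites within 50 bp of a cut site, which a read can reach, had a median of 65 against 13. Within a class the number of reachable sites followed methylation only weakly (Spearman's rho -0.18 over 123 members and -0.17 over 341, described over promoters that share the same mice and libraries). Reads were present in all 11 mice for 367 members, and the least covered member had reads in 6.

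**Figure D2:**
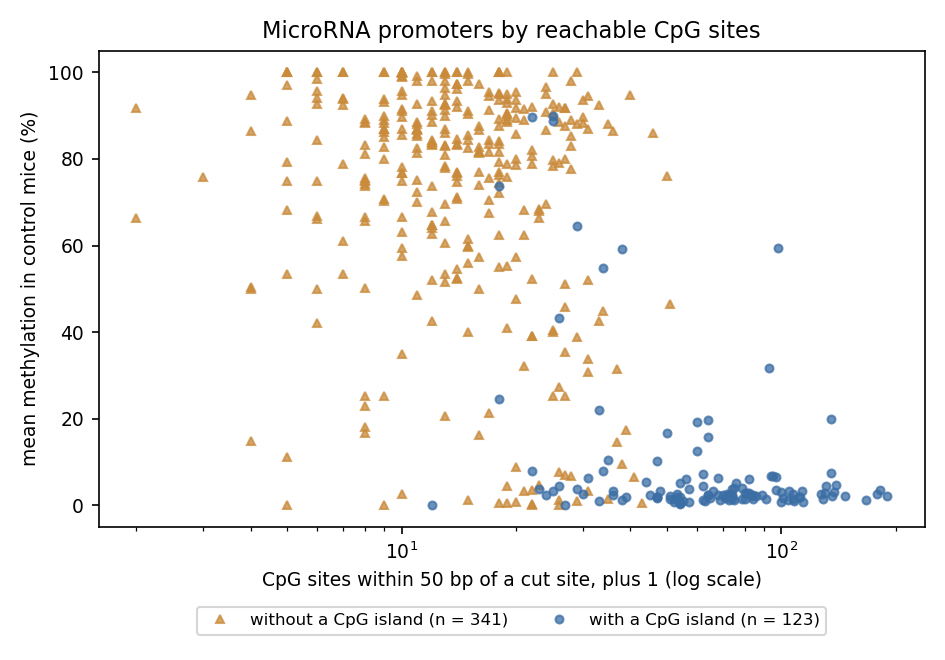
Mean methylation over 6 control mice (vertical axis, percent) against the number of CpG sites within 50 bp of a cut site plus 1 (horizontal axis, log scale), 1 point per microRNA promoter. Members with a CpG island (circles, median 65 reachable sites) gather at low methylation, and those without (triangles, median 13) spread from 0 to 100%.

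Extremes are given for members with reads in all mice and coverage averaging 50 or more in controls and in amphetamine-treated mice. At the lower end of the island class stood Mir18, Mir5133 and Mir34b. Mir18, a growth-promoting member of the miR-17 cluster, was listed at 0% in every control mouse. Mir5133, at the start of Glce, had 0.261% ± 0.639 (SD, n = 6, range 0 to 1.57%). Mir34b, a target of p53 that slows cell division, had 0.492% ± 0.887 (range 0 to 2.19%). At the upper end stood Mir7023 in Pik3cd with 89.9% ± 8.86, Mir6941 in Jag2 with 73.8% ± 18.7, and Mir692-3 with 64.4% ± 7.49. These 3 islands were themselves methylated, at 92.9%, 86.1% and 64.4% in controls. In all, 10 island members lay at 25% or above, and in 3 of them the island was below 10% while the window was not. Mir677 in Atp5b had 89.7% in the window and 2.27% over the island, Mir804 had 88.7% and 2.86%, and Mir3096 had 43.4% and 6.65%.

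Under the same limits on reads and coverage, Mir130b, Mir301b and Mir210 had the lowest methylation in the class without an island. Mir130b and Mir301b, from the start of 2610318N02Rik on chromosome 16, carried the same value of 0.523% ± 1.28 (SD, n = 6) because the same CpG sites were counted. Mir210, which is induced by low oxygen, had 0.538% ± 0.748 with a highest mouse of 1.88%. The highest under these limits were Mir3473d in Ddx19b with 99.9% ± 0.378, Mir582 in Pde4d with 99.7% ± 0.676 and Mir1898 in Zfr with 99.3% ± 1.76. Several thinly covered members were at 100% or had larger SDs. Under the same limits, the widest spread between control mice was seen at Mir1961 in Shroom3 (62.6% ± 35.8, range 15 to 100%), Mir3067 in Smoc1 (25.2% ± 35.4, range 0 to 91.3%) and Mir190a in Tln2 (66.6% ± 34.7, range 0 to 92.3%). In amphetamine-treated mice the SDs of these 3 promoters were 7.09, 19.2 and 7.79 percentage points. The 3 were picked for a large SD in controls, so smaller SDs in the other group can follow from the choice alone. No effect of amphetamine on the spread can be read from them.

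The genes that share a seed did not always share a level. Over all annotated arms, 31 seeds belonged to members in at least 2 separate windows with reads in all mice and coverage of at least 50. For 11 of the 31 seeds the control means spanned over 50 percentage points, for 7 all lay below 10%, and for 6 all lay at 75% or above. Some pairs of genes count under 2 seeds, 1 per arm: Mir9-2 with Mir9-3 among the 7, and Mir7676-1 with Mir7676-2 among the 6. Of all 464 members, 27.6% lay below 10% and 46.8% at 75% or above, so genes without a common seed can also lie far apart. Such genes were not compared in this way, so the counts show nothing particular to a shared seed. Many of these seeds are shared by unrelated high-numbered genes, so only families with a common name are described here.

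In the miR-34 family, Mir34a without an island had 79.8% ± 10.3 in controls (range 62.0 to 90.9%). Mir34b with an island had 0.492% (highest mouse 2.19%), so that their ranges lay far apart. Mir34c shared the window and value of Mir34b. In the let-7 family, which restrains growth and holds differentiation, Mirlet7i with an island had 2.06% ± 0.631 (range 1.09 to 2.86%) and Mirlet7c-2 without one had 64.0% ± 31.0 (range 24.2 to 92.4%). Mirlet7b next to it had 50% ± 50 in controls, with reads in 8 of 11 mice. In the miR-130 family, Mir130a had 67.7% ± 25.9 (range 36.8 to 100%) and Mir130b 0.523% (highest mouse 3.14%), both without an island. The growth-promoting miR-17 seed showed the same contrast. Mir17 with an island had 0.958% ± 1.32 at the start of Mir17hg. Without an island, Mir106b had 68.4% ± 6.18 and Mir93 75.8% ± 6.83 inside Mcm7. The windows of Mir106b and Mir93 held the start of an annotated Mcm7 transcript, which need not be the main start of Mcm7.

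Among the copies in this paragraph that make an identical mature RNA, the miR-219a pair differed, while the miR-9 pair and Mir196a-1 with Mir196a-2 overlapped. Mir219a-1 had 6.66% ± 2.32 (range 3.86 to 10.8%) and Mir219a-2 had 31.7% ± 5.49 (range 26.0 to 41.7%), although both windows held an island. Mir9-2 had 7.76% ± 6.94 and Mir9-3 had 2.45% ± 1.89, and their ranges overlapped. The miR-196 genes of the Hox clusters lay together, with 6.64% ± 6.25 at Mir196a-1, 6.96% ± 4.71 at Mir196a-2 and 1.39% ± 0.975 at Mir196b. The same held for Mir148a (2.93%, range 0.613 to 4.84%) and Mir152 (3.73%, range 0.298 to 8.64%), and for Mir193a (2.11% ± 0.850) and Mir193b (3.28% ± 2.98). Ranges of genes within each of these last 3 families overlapped.

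**Figure D3:**
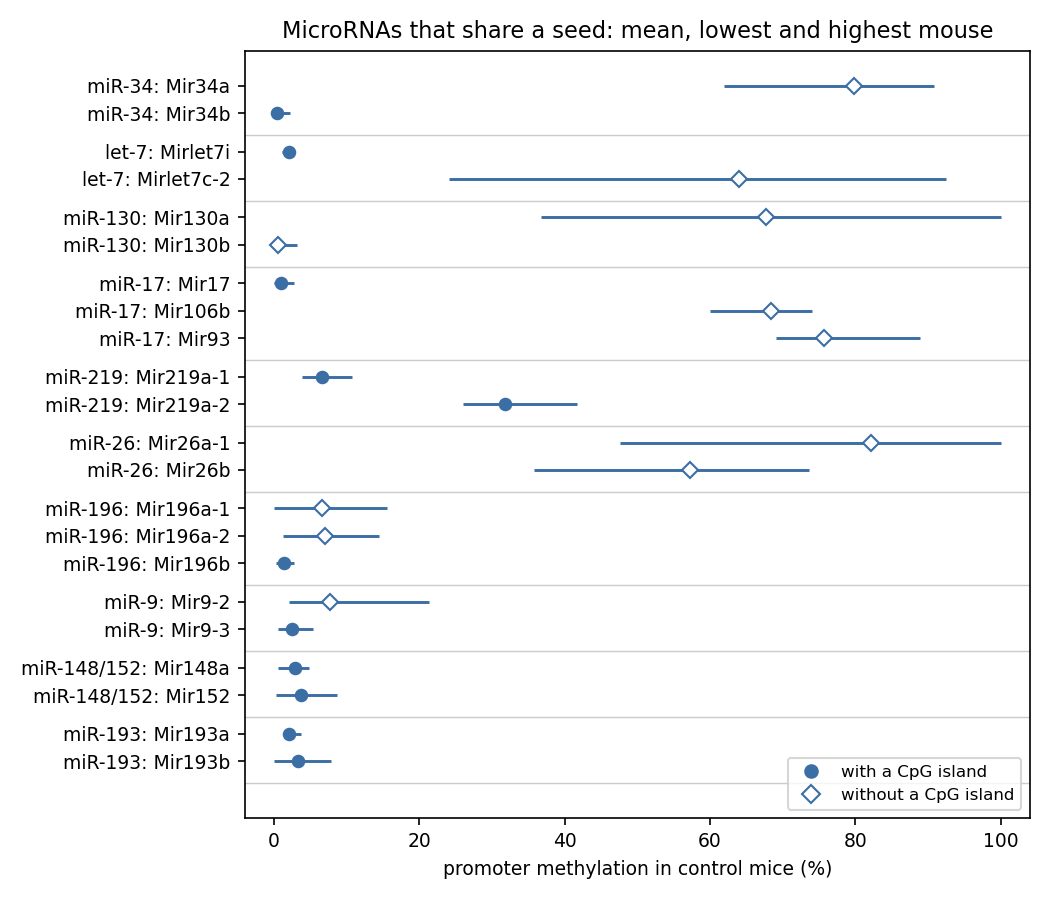
Promoter methylation in control mice (horizontal axis, percent) for microRNA genes grouped by a shared seed (vertical axis), with the mean as a symbol and the line from the lowest to the highest of 6 mice. The miR-34, let-7, miR-130 and miR-17 families hold both unmethylated and methylated promoters, from 0.492% at Mir34b to 79.8% at Mir34a, while the miR-196, miR-9, miR-148 and miR-193 promoters shown all have means below 10%.

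Of 35 islet microRNA genes listed for their known roles in endocrine cells, 20 were members, 19 of them with reads in all mice. In controls 9 of the 20 lay below 10% and 5 at 75% or above. Of all 464 members, 27.6% lay below 10% and 46.8% at 75% or above. For all autosomal promoters these shares were 54.5% and 22.3%. Mir375 had 0.762% ± 1.54 in controls (SD, n = 6, range 0 to 3.85%) and 3.46% ± 2.51 in amphetamine-treated mice (n = 5, range 0.694 to 6.03%). The ranges overlapped, and the difference of 2.70 ± 1.24 percentage points (SE) had an unadjusted p of 0.055 and an adjusted p of 0.958 in limma's moderated test. Its island alone had 0.160% in controls and 0.395% in amphetamine-treated mice. Mir7b, which restrains β-cell growth, had 0.645% ± 1.39 in controls and 0.875% ± 1.80 with amphetamine. Mir7-2 was at 100% in the 6 mice with reads, at a mean control coverage of 8.

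The other islet members ranged from low to high. The 3 miR-124a genes, which silence non-neuronal transcripts, had 4.69% ± 5.95 at Mir124a-1, 3.37% ± 3.84 at Mir124a-2 and 3.51% ± 0.646 at Mir124a-3. Mir153 in Ptprn2, a gene for a protein of the insulin granule, had 11.1% ± 10.9 over 4 reachable CpG sites. Mir132 and Mir212, which respond to cAMP and share a window, had 1.36% ± 1.34 and 1.26% ± 1.25 in controls and 3.41% ± 1.55 and 3.37% ± 1.36 with amphetamine. Their unadjusted p-values were 0.0498 and 0.0318 and their limma adjusted p-values both 0.958. The epithelial miR-200 genes were intermediate or high, with 45.7% ± 14.5 at Mir200c, 51.9% ± 15.1 at Mir141 and 75.7% ± 16.0 at Mir200b. Mir200b rested on 2 reachable CpG sites and had 93.9% ± 7.42 with amphetamine (unadjusted p 0.0358, limma adjusted p 0.958). Mir182, Mir130a, Mir184, Mir34a, Mir26a-1 and Mir26a-2 ranged from 59.8% to 88.9% in controls.

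**Figure D4:**
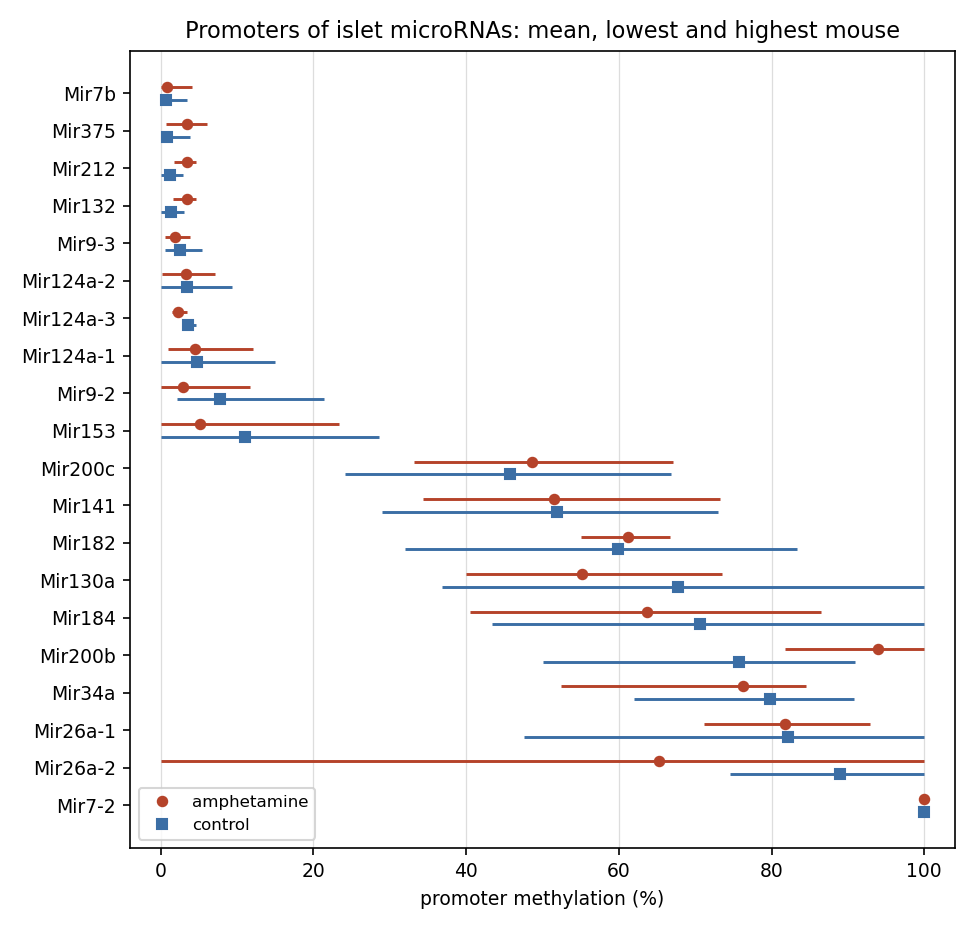
Promoter methylation (horizontal axis, percent) of 20 islet microRNA genes (vertical axis, ordered by the control mean) in amphetamine-treated mice (circles, up to 5) and controls (squares, up to 6), with lines from the lowest to the highest mouse. Mir7b and Mir375 lie near 0 in both groups, and the ranges of the groups overlap at the promoters shown.

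Mir148a was the only member among 6 acinar microRNA genes, with 2.93% in controls (range 0.613 to 4.84%) and 1.64% with amphetamine (range 0 to 3.57%). Genes typical of other cell types gave 9 members of 21, none with an island and none below 10%. The median of the 9 was 66.2% in controls, against 82.2% for all members without an island. Of all members without an island, 7.33% lay below 10%. Mir122 of hepatocytes had 69.5% ± 13.5, Mir126a of endothelium 67.6% ± 23.9, Mir143 of smooth muscle 76.0% ± 20.7 and Mir142hg of blood cells 57.6% ± 19.2. Mir144 and Mir451a of red cells had 66.2% and 50% at control coverages of 5.17 and 8.83.

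Imprinted microRNA genes gave 11 members of 32 entries, none with an island, and their control median was 94.8%. Imprinted genes are expressed from 1 parental copy, often with the other copy methylated at a control region. Those inside Rtl1 on chromosome 12 were highly methylated, with control mice between 93.5% and 100% at Mir127 and means of 95.1% ± 3.99 at Mir136, 94.8% ± 2.91 at Mir434, 91.8% ± 6.89 at Mir433 and 85.3% ± 7.95 at Mir431. Mir675, which is cut from H19 and whose window holds an H19 start, had 44.8% ± 22.0 (range 14.6 to 71.4%). Mir370 within Rian had 54.6% ± 40.8, with control mice from 0 to 100%. The list of let-7 and growth microRNAs gave 9 members, of which the 4 with an island lay below 10%, as did 83.7% of all members with an island. Mir17hg, the host transcript of the miR-17 cluster, had 1.19% ± 1.02.

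The effect of prenatal amphetamine was asked with limma's moderated test, rebuilt from the group summaries of all promoters. The groups were close in sex ratio, and sex was not a term in the fit. No member passed an adjusted p of 0.05, against 4 of 24360 promoters tested (0.0164%). Of 459 members tested, 24 (5.23%) had an unadjusted p under 0.05, against 4.11% of all promoters, and the smallest adjusted p of a member was 0.710. Among these 24, methylation was higher in 10 and lower in 14 with amphetamine, or 2.18% and 3.05% of members, against 2.21% and 1.92% of autosomal promoters. With a fold above 1.5 and a difference above 25 percentage points in addition, 5 members (1.09%) were left, all without an island. The share of autosomal promoters, not matched for islands, was 0.579%. Without an island, 3.812% of members and 6.198% of the other autosomal promoters differed by more than 25 percentage points between treatments at any p. Over all 464 members the median difference was -0.36 percentage points, with 253 lower, 194 higher and 17 equal. Among the other autosomal promoters it was 0, with 49.5% lower against 54.5% of members. None of the 5 lists held a member past the adjusted threshold. The members with an unadjusted p under 0.05 in the lists were Mir132, Mir212 and Mir200b, 3 of the 20 islet members. Mir132 and Mir212 share a window and are not separate loci, and Mir200b rested on few reachable CpG sites. Of the 20 islet members, 7 were higher, 12 lower and 1 equal with amphetamine, with a median difference of -0.26 percentage points.

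The promoters next described had the smallest p-values and did not pass the adjusted threshold (adjusted p in limma 0.875 at Mir688 and 0.958 at the other promoters named in this comparison, apart from Mir7074). Mir688 lies in an exon of Atp5g2, a gene for a subunit of ATP synthase with an annotated transcript start in the window. Mir688 had 1.96% ± 1.87 in controls (range 0 to 4.17%) and 8.91% ± 3.74 with amphetamine (range 2.51 to 11.6%). Over its island the means were 1.19% and 2.57%. Mir5103 had 9.49% ± 5.87 (range 0.875 to 18.4%) against 19.7% ± 5.06 (range 12.7 to 26.1%). Mir3082 in Stub1 had 19.8% ± 4.82 against 26.7% ± 2.25, while its island had 1.10% and 1.99%. Mir6420 had 78.8% ± 10.6 against 96.0% ± 5.12 on 6 reachable CpG sites, and Mir713 had 1.11% ± 1.76 against 6.00% ± 3.86. The ranges of the groups overlapped at each of these 5 promoters.

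Among the lower ones, Mir345 was the only member of 367 with reads in all mice (0.272%) whose groups did not overlap, against 0.407% of autosomal promoters. It had 6.84% ± 1.18 in controls (range 5.74 to 9.06%) and 4.95% ± 0.468 with amphetamine (range 4.25 to 5.56%). The difference of -1.90 ± 0.662 percentage points (SE) had an unadjusted p of 0.0171 in limma, and 0.182 points separated the nearest mice. The hairpin lies in an exon of Slc25a47 at chr12:108836973-108837068, and the window holds starts of Slc25a47 and Slc25a29. Within each group the mean over the island equalled that of the window, so the island adds no second value. The mature RNA of Mir345, with the seed in capitals, is shown to identify this member.
Mir345, miR-345-5p: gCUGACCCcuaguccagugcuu

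Mir874 in Klhl3 had 91.2% ± 14.3 in controls against 56.5% ± 27.2, with amphetamine-treated mice from 25 to 92.9%. Mir1231 in Nav1 had 97.3% ± 3.13 against 87.5% ± 8.58, and Mir7006 in Zfp512b had 91.8% ± 7.91 against 80.7% ± 7.29. Mir7076 lies in an intron of the chymotrypsinogen gene Ctrb1, which has an annotated transcript start in the window. Mir7076 was at 100% in all 6 controls and 80.1% ± 19.1 with amphetamine, at a control coverage of 11.8. The smallest p of any member, 0.00139 (adjusted p 0.710), belonged to Mir7074 in Slc12a4. It had reads in 6 mice only, 94.9% ± 8.88 in controls (n = 3) and 12.6% ± 21.9 with amphetamine (n = 3). These ranges did not overlap, but control coverage was 4.33.

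**Figure D5:**
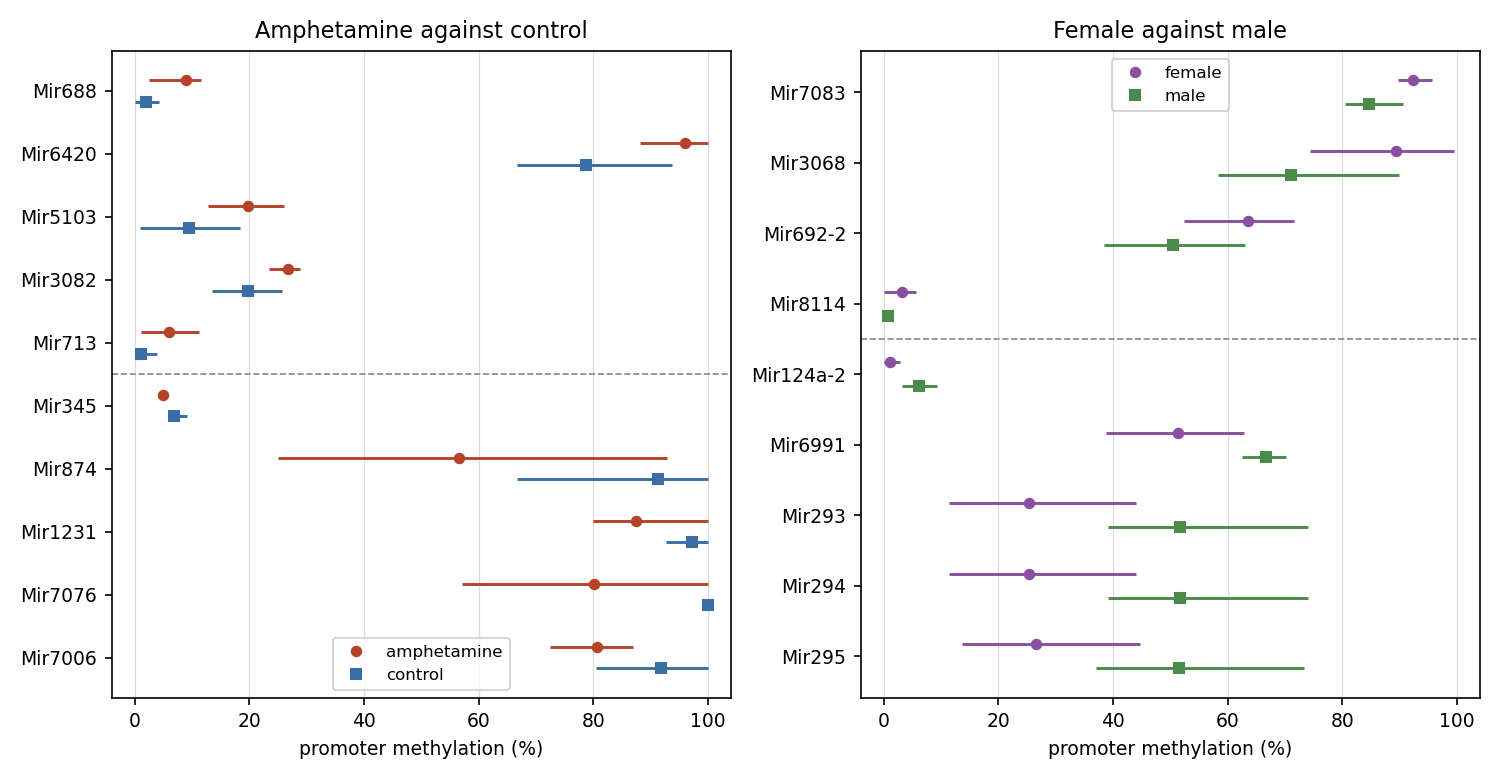
Promoter methylation (horizontal axis, percent) for the reported members of smallest p that were higher (above the dashed line) or lower in each comparison, left for amphetamine-treated mice against controls and right for females against males, with the mean as a symbol and a line from the lowest to the highest mouse. Among the members shown, ranges meet at all but Mir345 (left) and Mir124a-2 (right), and no member passed an adjusted p of 0.05.

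Females and males were compared over the same mice, so the 2 comparisons are not independent. No member passed an adjusted p of 0.05 in limma, against 137 of 24293 promoters (0.564%) in all and 11 of 23125 autosomal ones (0.0476%). An unadjusted p under 0.05 was found in 31 of 464 members (6.68%), against 6.07% of all and 4.62% of autosomal promoters. Females were lower in 20 of these (4.31%) and higher in 11 (2.37%), against 2.21% and 2.41% of autosomal promoters. The 20 lower members lay in 16 separate windows, since clustered genes share their reads. With the fold and difference thresholds added, 7 members (1.51%) in 5 separate windows were left, all without an island, against 0.597% of autosomal promoters. Without an island, 5.57% of members and 6.57% of the other autosomal promoters differed by more than 25 percentage points between the sexes at any p. The median difference over all members was 0, with 231 higher and 217 lower in females. In the lists, Mir124a-2 was the only member with an unadjusted p under 0.05.

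Mir124a-2 had the smallest p and was the only member with reads in all mice (0.272%) whose sexes did not overlap, against 0.462% of autosomal promoters. It had 1.01% ± 1.19 in 6 females (range 0 to 2.86%) and 6.08% ± 2.45 in 5 males (range 3.09 to 9.27%). The difference of -5.07 ± 1.14 percentage points (SE) had an unadjusted p of 0.00131 and an adjusted p of 0.133 in limma. Its island, at chr3:17794653-17794938 and upstream of the 300 bases shown, had 0.663% in females and 8.40% in males. At the other 2 genes of the family the sexes were close, with 4.12% and 5.23% at Mir124a-1 and 3.16% and 2.65% at Mir124a-3 in females and males.

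The miR-290 cluster on chromosome 7, which is typical of embryonic stem cells and early germ cells, gave 7 members in 1 merged window. The 3′ arms of Mir291a, Mir294 and Mir295 share a seed, shown here in capitals, while that of Mir293 has another.
Mir294, miR-294-3p: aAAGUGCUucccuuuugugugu
Mir295, miR-295-3p: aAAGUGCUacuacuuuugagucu
Mir291a, miR-291a-3p: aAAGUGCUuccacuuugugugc

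Mir293 and Mir294, which shared their reads, had 25.3% ± 12.8 in females (range 11.3 to 44.0%) and 51.6% ± 13.3 in males (range 39.1 to 74.0%). The difference of -26.36 ± 7.58 percentage points (SE) had an unadjusted p of 0.0061 and an adjusted p of 0.358 in limma. Mir295 had 26.5% ± 13.8 in females and 51.6% ± 13.5 in males, and Mir291b had 23.6% ± 13.5 and 45.8% ± 12.6. In the windows of Mir290a and Mir291a, which lie upstream of Mir293, the sexes were closer. They had 20.2% ± 20.7 and 18.6% ± 16.4 at Mir290a and 20.1% ± 18.8 and 35.7% ± 20.9 at Mir291a. Whether this differed from Mir293 was not tested. The deposited tile of 5000 bp at the starts of Mir293, Mir294 and Mir295 had 89.1% in females and 86.1% in males. This tile begins within their windows, so it leaves out their upstream parts and takes in sequence further downstream. The tile at the starts of the other 4 members of the cluster had 34.3% and 46.5%. Between treatments the same promoters had 35.1% ± 14.4 with amphetamine and 39.1% ± 22.6 in controls at Mir293.

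Of the other members with small p-values, Mir6991 had 51.4% ± 8.67 in females and 66.6% ± 3.03 in males (adjusted p 0.242), and over its island 39.1% and 53.6%. Mir7083 in Dock6 was at 92.4% ± 2.51 in females and 84.7% ± 4.16 in males (adjusted p 0.229). Mir3068 in Alkbh1 had 89.4% ± 10.3 and 71.0% ± 11.8 and Mir692-2 in Grik3 had 63.6% ± 7.52 and 50.4% ± 9.69. Mir8114, near the starts of Glul and Teddm2, had 3.19% ± 2.03 and 0.686% ± 0.669. The limma adjusted p-values of these last 3 lay between 0.608 and 0.738, and the ranges of the sexes overlapped at each.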

How the data were processed

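RRBS was performed on genomic DNA of 11 newborn pancreata. After MspI and TaqI digestion, the authors aligned single-end reads to mm10 with Bismark (version not given in the sources used here) and summarized regions with RnBeads. The deposited methylation values are fractions, a mean for each group of mice, which the authors computed from mice with reads and which are printed here as percent. The deposited coverage is a signal averaged over mice and not normalized, and its unit beyond reads summed over a region is not given in the sources used here, so no counting intervals were computed. The deposited SDs, lowest and highest values and numbers of mice without reads were used as they stand. The authors' own differences, quotients, p-values, adjusted p-values and ranks were not used.

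Members were chosen by symbol, and windows were compared with GENCODE M21: 441 run exactly from 1500 bp before to 500 bp after the annotated start, and 23 differ from it. Members and gene lists were chosen with earlier results of these data known. Group means, SDs and numbers of mice were entered into limma 3.58.1 (R 4.3.3) as a two-sided moderated test with pooled variance, fitted on all promoters with reads in at least 2 mice per group and adjusted by Benjamini-Hochberg, without sex or treatment as covariate because only group summaries were used. The rebuilt test was checked on simulated data. Named promoters were those of 5 lists (islet, acinar, other cell types, imprinted, let-7 and growth), the 5 higher and 5 lower members of smallest p per comparison (all 11 mice, coverage of at least 10), those whose groups do not overlap, the 3 highest and 3 lowest per island class and the 3 of largest control SD (coverage of at least 50). Members of seed families, members whose island and window differ, the miR-290 cluster and Mir7074 were chosen after their values were seen. For females against males, 1 of the 5 higher members is not reported here. Promoter sequence came from GRCm38 and mature sequences from RefSeq (GRCm38.p6). Python 3.11.15 with pandas 2.3.3 and pysam 0.24.0 was used.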

Additional observations from a re-analysis of the deposited data

How the results depend on the processing

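The count of called members stayed at 0 in both comparisons with an adjusted p under 0.1, a variance prior with a trend or a robust one, coverage of at least 10, reads in all 11 mice, an SD above 0, autosomes only, gene regions in place of promoters, and with fold and difference thresholds added. With an unadjusted p under 0.05 it was 24 for treatment and 31 for sex. With a fold above 1.5 and a difference above 25 percentage points added to that it was 5 (1.09%) and 7 (1.51%). The shares of autosomal promoters, not matched for islands, were 0.579% and 0.597%. The non-overlapping member stayed 1 in each comparison at coverage of at least 50. The median treatment difference lay between -0.48 and 0 percentage points, and the control medians between 2.37% and 2.67% with an island and between 78.3% and 82.7% without, over the alternatives tried. Leaving out 1 mouse could be followed only through the lowest and highest values of each group. Over the 83 named promoters, the difference kept its sign in 51 for treatment and 42 for sex when any single mouse was left out. The 83 include promoters picked for a small p in the same comparison, and no such share over all members was computed. For Mir345 the treatment difference ranged from -2.12 to -1.45 percentage points and for Mir124a-2 the sex difference from -5.82 to -4.28. Both were named because their ranges did not overlap, so leaving out any single mouse could not change the sign. The calls themselves could not be recomputed without a mouse, nor sex and treatment fitted together, from group summaries. No paired analysis was possible because the replicate numbers were given in accession order and pair no samples.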

Other observations

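The pattern also matched 14 promoters on the X chromosome, which were left out of the members. In females 1 X chromosome is silenced in each cell and its CpG islands are methylated. The 2 X-linked promoters with an island were higher in every female than in any male, but their windows overlap over most of their length, so they are 1 locus rather than 2 separate ones. Mir5132 had 31.9% ± 17.2 in females (SD, n = 6, range 12.5 to 63.1%) and 0.714% ± 1.60 in males (n = 5, highest 3.57%), and Mir718 had 30.1% ± 17.3 and 0.816% ± 1.83. Mir7093, without an island, had 30.8% ± 21.4 in females and 4.15% ± 5.54 in males, again without overlap. None of the 14 passed an adjusted p of 0.05 in limma (adjusted p 0.176, 0.234 and 0.626 for these 3). The other 8 X-linked promoters with reads in all mice overlapped between the sexes.

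Members without an island were also divided by the number in their symbol, which follows the order of discovery, a division chosen after the data were seen. The 120 with a number below 1000 had a control median of 69.6% and 15 below 10%, and the 221 with a higher number had a median of 85.4% and 10 below 10%. Median coverage was 77.5 and 57.0 and reachable CpG sites 15 and 12, and their part in the difference was not tested. Of the members without an island, those whose window held another transcript start lay below 10% in 16 of 106, and those without such a start in 9 of 235.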
